A study of Mus musculus with 16 samples.

Results

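The beta cell disallowed genes studied here were 8 genes, Ldha, Slc16a1, Hk1, Rest, Acot7, Oat, Igfbp4 and Cxcl12, found by their Ensembl identifiers among the 52636 genes of a count table. All 8 passed the filter on low counts, with 18587 genes in all. The counts came from RNA sequencing of 16 libraries of islets, the hormone-secreting cell clusters of the pancreas, taken from male mice 12 weeks old. Their strain is C57BL/6JRj in the labels and C57BL/6NRj in the study's methods. Control islets were kept for 10 days in medium with human serum and nothing added, and islets of the other conditions had 50 pg/ml of recombinant mouse IL-1β, 0.2 mM sodium butyrate, or both. Each of the 4 conditions had 4 libraries (replicates 1 to 4), which the study describes as biological replicates, each from 500 pooled islets, with no genetic change in any group. The comparisons ask what a low dose of an inflammatory cytokine does to islets, what butyrate, a fatty acid made by gut bacteria, does alone, and what it does when the cytokine is present.

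Disallowed genes are genes that most tissues express and that beta cells keep at a very low level. The best known are those for lactate dehydrogenase A and for the monocarboxylate transporter 1, whose low level keeps pyruvate on its way to the mitochondria and keeps the beta cell from secreting insulin in response to pyruvate or lactate from muscle. High-affinity hexokinase is kept low so that glucose use follows the glucose level, and the repressor REST is kept low so that neuronal and exocytotic genes can be expressed. In whole islets, reads of these genes can also come from the other endocrine cells, endothelial cells, fibroblasts and macrophages.

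Igfbp4 stood out among the 8 genes. It rose 7.50-fold in islets exposed to IL-1β, 2.57-fold in islets exposed to butyrate and 16.8-fold in islets exposed to both. Hk1 fell in islets exposed to IL-1β, Oat fell in islets exposed to butyrate alone, and Cxcl12 was lower in islets exposed to both than in control islets. Ldha had a higher mean in all 3 exposed groups, but its values varied between libraries. It did not pass the main test (edgeR) in any comparison, while its rise with IL-1β passed with DESeq2 (adjusted p = 0.0047). Slc16a1, Rest and Acot7 did not pass the main test either.

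Changes were tested with edgeR's quasi-likelihood test, and a gene was called at an adjusted p under 0.01, the study's threshold. With IL-1β alone, 2 of the 8 genes were called compared to control islets, where 17.8% of all tested genes were called. Of the 2, 1 rose, as did 11.2% of all genes, and 1 fell, as did 6.59%. Butyrate alone also changed 2 of the 8, where 19.9% of all genes were called, and 1 rose and 1 fell beside 8.53% and 11.4% of all genes. When butyrate was added to IL-1β, 1 of the 8 rose compared to IL-1β alone, where 19.5% of all genes were called, 8.41% up and 11.1% down. Between islets exposed to both and control islets 2 of the 8 differed, where 30.6% of all genes did, with 1 higher beside 15.8% of all genes and 1 lower beside 14.8%. These counts of 8 are near the shares of all genes and say nothing particular about disallowed genes as a group. The median log2 fold change of the 8 genes was -0.03 with IL-1β and -0.01 with butyrate alone, beside -0.03 and 0.01 over all tested genes. It was 0.33 for butyrate in the presence of IL-1β and 0.19 for both exposures compared to control, beside 0.01 and 0.00 over all genes. The effect of butyrate in cytokine-exposed islets was also compared with its effect in islets without cytokine, and edgeR called 0 of the 8 genes and 0.0968% of all genes (0.043% up and 0.0538% down). With the replicate number as a block, edgeR called 1 of the 8 (Oat) for this difference, and 132 of the 18587 tested genes in place of 18. At an unadjusted p under 0.05 this difference had 3 of the 8 genes (Hk1, Acot7 and Oat) and 7.33% of all genes, and DESeq2 called 1 of the 8 (Oat) and 0.251% of all genes. At the same unadjusted p, 3 of the 8 genes differed with IL-1β, 3 when butyrate was added to IL-1β, 3 with butyrate alone and 4 between both exposures and control, beside 35.9%, 39.9%, 38.6% and 46.2% of all genes. Several comparisons share the same control or IL-1β libraries, so their fold changes are not independent of each other.

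**Figure D1:**
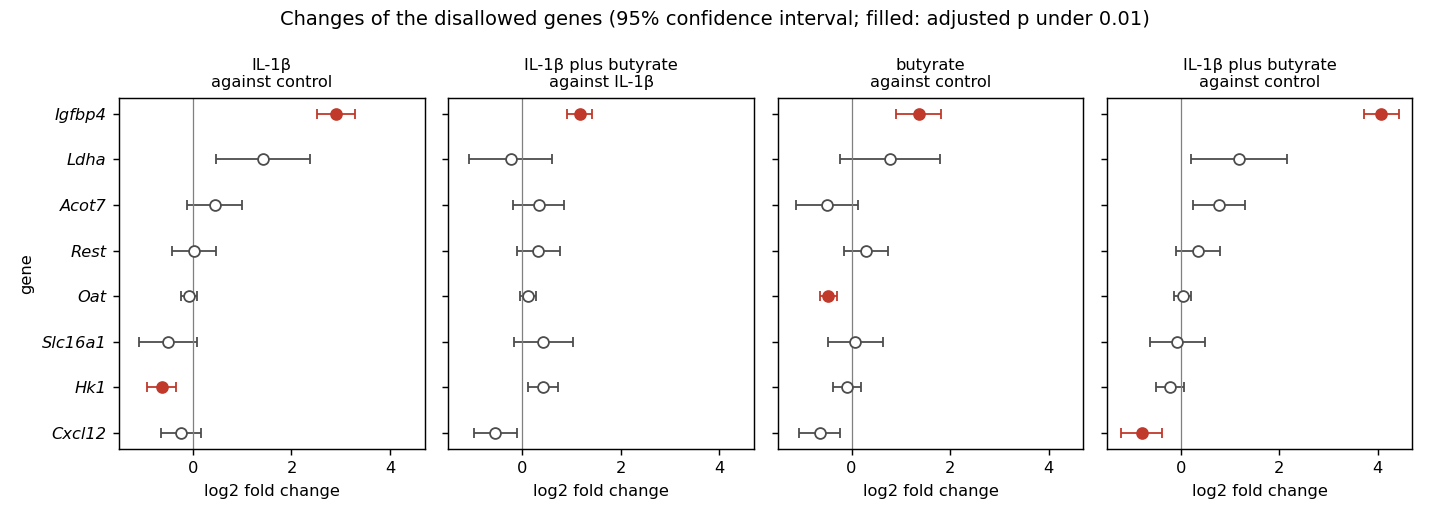
Log2 fold change (x axis) of the 8 disallowed genes (y axis) in 4 comparisons, with 95% confidence intervals from edgeR; filled points had an adjusted p under 0.01 and open points did not. Igfbp4 lies right of 0 in all 4 panels, from 1.17 to 4.07, and the other filled points are Hk1 (-0.64), Oat (-0.47) and Cxcl12 (-0.80).

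Levels of different genes were compared as counts scaled to a common library size (CPM, as edgeR computes it) divided by the length of their exons in kilobases. In control islets the 8 genes spanned from 0.190 CPM per kilobase for Rest to 6.31 for Oat, beside a median of 2.57 over all tested genes with a length. Oat, a mitochondrial enzyme, was above 68.1% of these genes and thus was not expressed at a low level in these islets. The other 7 genes lay below the median. Hk1 was above 31% of genes, Ldha above 29.2%, Acot7 above 22.2% and Igfbp4 above 19.2%. Slc16a1, Cxcl12 and Rest were above 13.6%, 13.4% and 12%. In control islets the order was Oat, Hk1, Ldha, Acot7, Igfbp4, Slc16a1, Cxcl12 and Rest, and only Oat was separated from its neighbour, since from Hk1 down the ranges of neighbours over the 4 libraries overlapped. With the longest transcript as length in place of all exons, control levels were 1.36 for Hk1 (0.680 with all exons) and 1.10 for Ldha (0.602). Cxcl12 (0.301) then came before Slc16a1 (0.211). Exposure to IL-1β moved Igfbp4 to second place (2.29 CPM per kilobase), with a range that still overlapped that of Ldha. In islets exposed to both, Igfbp4 reached 5.16 CPM per kilobase, and its range overlapped that of Oat (6.47). With butyrate alone it came after Oat and Ldha, and its range and that of Ldha overlapped too.

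**Figure D2:**
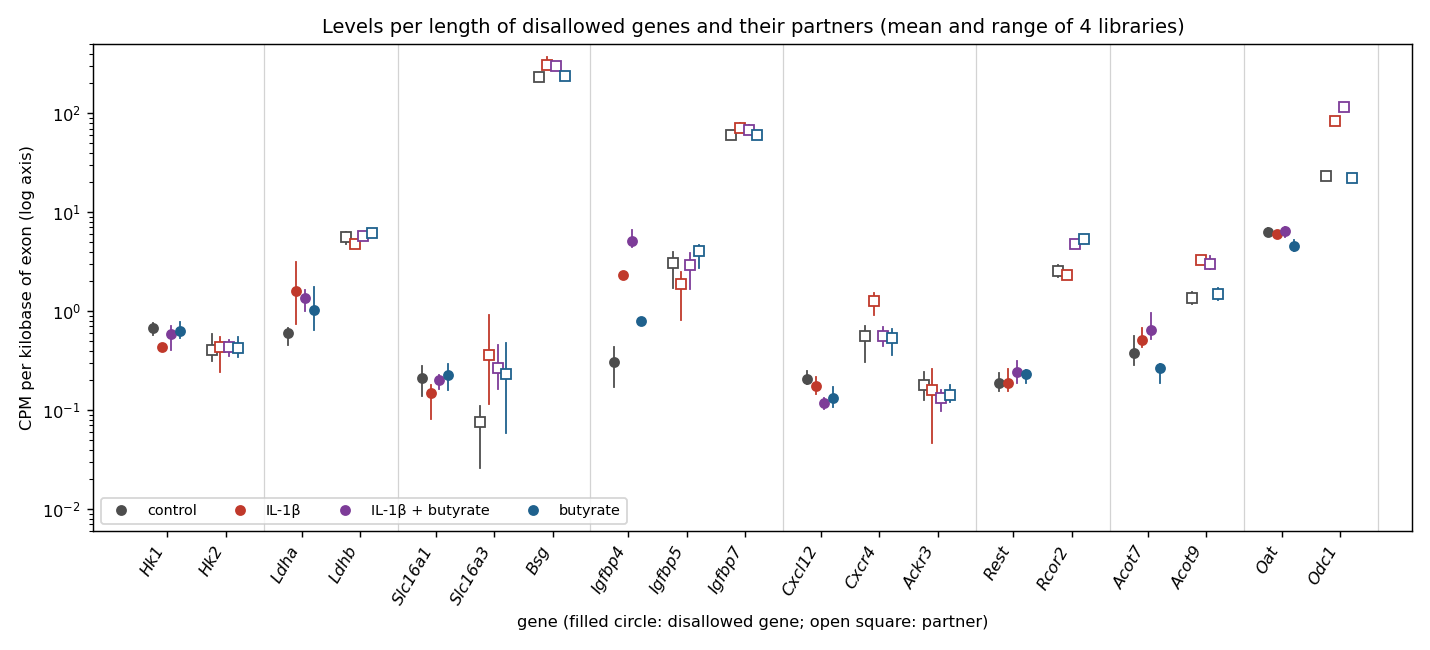
CPM per kilobase of exon on a log axis for the 8 disallowed genes (filled circles) and partner genes (open squares) in the 4 conditions (colours); points are means and vertical lines the lowest and highest of 4 libraries. Bsg and Igfbp7 lie far above Slc16a1 and Igfbp4, and Igfbp4 climbs from 0.307 in control islets to 5.16 with both exposures.

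Igfbp4 (ENSMUSG00000017493, GRCm38 chr11:99041244-99054392, plus strand) encodes a secreted protein that binds insulin-like growth factors. Its CPM in control replicates 1 to 4 was 1.12, 0.751, 1.62 and 1.93. In islets exposed to IL-1β it was 9.46, 9.83, 10.4 and 10.9, and with butyrate alone 3.21, 3.46, 3.61 and 3.61. The combined exposure gave 21.6, 19.6, 29.2 and 20.8. No library of one condition overlapped with those of another, which held for 24.7% of all tested genes between IL-1β and control, 26.9% between both exposures and IL-1β, 30.1% between butyrate and control and 38.5% between both exposures and control. The order control, butyrate, IL-1β, both held for all 16 libraries. The means were 1.36 ± 0.52, 3.47 ± 0.19, 10.1 ± 0.61 and 22.8 ± 4.3 CPM (SD, n = 4). In counts this was 18 to 45 per control library and 433 to 666 with both exposures.

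The log2 fold change of Igfbp4 was 2.91 (SE 0.18) with IL-1β compared to control (edgeR adjusted p = 5.9e-11). Butyrate alone raised it by 1.36 (SE 0.22, adjusted p = 5.3e-05), and butyrate in the presence of IL-1β by 1.17 (SE 0.12, adjusted p = 3.3e-07). The difference between these butyrate effects was -0.20 (SE 0.25, 95% confidence interval -0.72 to 0.33, adjusted p = 0.96), an interval that includes 0 on the log2 scale. Compared to control, the combined exposure raised it by 4.07 (SE 0.17, adjusted p = 3.2e-14). These 4 rises passed the threshold in every alternative tried, including without each library in turn.

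The GC content of the Igfbp4 promoter is high, and the windows of the 4 called genes are shown because their transcripts are those that changed. Each is 300 bases of RefSeq sequence on GRCm38.p6, from 250 bases before to 50 bases after an annotated start, given 5′ to 3′ on the gene's own strand. That of Igfbp4 (chr11:99040994-99041293, plus strand) has 71.3% GC and 27 CpG, beside medians of 52.7% and 7 over 32851 windows, and capitals mark a TATA box (TATAAA), which 13.6% of all windows hold on either strand. The window of Cxcl12 (chr6:117168285-117168584, plus strand) has 64.7% GC and 20 CpG, and capitals mark 5 GC boxes (GGGCGG or its complement CCGCCC, in 35.7% of windows), of which the last 2 share a base. The Oat window (chr7:132576349-132576648, minus strand) has 61.7% GC and 22 CpG, with 2 GC boxes side by side in capitals. Hk1 has 2 windows in the table, and that of the inner one (chr10:62340372-62340671, minus strand) has 63.3% GC and 20 CpG, while the outer one (chr10:62379859-62380158) has 51.3% GC and 1 CpG and is not shown. Capitals in the Hk1 window mark ACGTG, the core of the hypoxia response element (in 19.6% of windows, and in every CACGTG). Motifs were searched on both strands. Such matches are letters in a window and not measured binding.
Igfbp4 promoter window: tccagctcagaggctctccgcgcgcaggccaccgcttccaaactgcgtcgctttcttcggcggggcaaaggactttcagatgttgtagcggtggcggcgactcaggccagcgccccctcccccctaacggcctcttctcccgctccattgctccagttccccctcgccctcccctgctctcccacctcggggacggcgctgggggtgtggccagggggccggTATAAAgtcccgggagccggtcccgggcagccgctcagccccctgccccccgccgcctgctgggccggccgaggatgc
Cxcl12 promoter window: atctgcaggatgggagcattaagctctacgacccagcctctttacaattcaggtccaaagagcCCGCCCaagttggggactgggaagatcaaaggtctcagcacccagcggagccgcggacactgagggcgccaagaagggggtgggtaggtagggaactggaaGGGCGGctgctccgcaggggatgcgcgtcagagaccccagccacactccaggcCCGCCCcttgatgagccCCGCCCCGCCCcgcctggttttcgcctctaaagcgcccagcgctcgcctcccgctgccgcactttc
Oat promoter window: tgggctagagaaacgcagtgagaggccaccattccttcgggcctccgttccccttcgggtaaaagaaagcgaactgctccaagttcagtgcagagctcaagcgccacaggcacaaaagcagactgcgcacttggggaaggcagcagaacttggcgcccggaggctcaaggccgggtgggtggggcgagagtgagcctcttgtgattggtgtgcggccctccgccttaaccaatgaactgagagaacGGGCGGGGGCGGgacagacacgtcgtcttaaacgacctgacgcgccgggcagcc
Hk1 inner promoter window: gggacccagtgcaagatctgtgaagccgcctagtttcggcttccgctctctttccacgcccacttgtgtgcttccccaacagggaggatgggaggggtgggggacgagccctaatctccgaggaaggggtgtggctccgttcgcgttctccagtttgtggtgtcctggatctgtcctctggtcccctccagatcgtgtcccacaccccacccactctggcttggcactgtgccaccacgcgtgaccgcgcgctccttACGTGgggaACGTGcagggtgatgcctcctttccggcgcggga

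Of 14 other genes of the insulin-like growth factor system, 10 were tested. Igfbp1, Igfbp2, Igfbp3 and Igfbp6 were too low for the test, with at most 23 counts in any library. With IL-1β, 3 of the 10 rose and 1 fell, beside 11.2% and 6.59% of all genes, and with butyrate alone 1 rose and 0 fell, beside 8.53% and 11.4%. The median log2 fold change of the 10 was -0.06 with IL-1β and 0.11 with butyrate alone, beside -0.03 and 0.01 over all genes. Igf2, a growth factor ligand, rose from 4.32 ± 1.1 CPM in control islets to 21.9 ± 2.0 with butyrate (log2 fold change 2.35, SE 0.18, edgeR adjusted p = 2.1e-07) and had 4.10 ± 1.5 CPM with IL-1β, a pattern unlike that of Igfbp4. Pappa2, a protease of IGF binding proteins, fell by 1.24 on the log2 scale with IL-1β (SE 0.12, adjusted p = 3.0e-06) and rose by 0.54 when butyrate was added (SE 0.12, adjusted p = 0.0039). Igf1 rose with IL-1β (0.84, SE 0.17, adjusted p = 0.00054) and fell when butyrate was added (-0.79, SE 0.17, adjusted p = 0.00097). The receptor Igf2r rose by 0.27 with IL-1β (SE 0.050, adjusted p = 0.00011). Igfbp7, the binding protein with the highest level per length, was 196-fold above Igfbp4 in control islets and 13.2-fold above it with both exposures, on the scale of CPM per kilobase. Igfbp5 was 10.1-fold above Igfbp4 in control islets and below it with both, at 0.565 times its level.

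The genes whose log2 CPM followed that of Igfbp4 most closely over the 16 libraries were Trnp1 (Pearson r = 0.979), Micall2 (0.979) and Tgfb1 (0.976). The 16 points fall into the 4 conditions and share their libraries, and after the condition means were subtracted the r values were 0.28, 0.43 and 0.07. The likeness thus lay in the condition means.

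Cxcl12 (ENSMUSG00000061353, GRCm38 chr6:117168535-117181367, plus strand) encodes a chemokine that most stromal cells make. Its CPM in control replicates 1 to 4 was 1.59, 1.50, 2.05 and 1.63, and with IL-1β 1.19, 1.75, 1.50 and 1.26. The combined exposure gave 1.10, 0.849, 0.920 and 1.01, and with butyrate alone 1.41, 1.02, 0.888 and 0.989. The values with butyrate lay below all control values in both butyrate conditions, while those with IL-1β alone overlapped with control. Of all tested genes, 30.1% had no overlap between butyrate and control and 38.5% between both exposures and control. Islets exposed to both differed from control islets by -0.80 on the log2 scale (SE 0.20, edgeR adjusted p = 0.0025), a 1.74-fold lower level. This call was lost without control replicate 3 (log2 fold change -0.69, adjusted p = 0.015) or without replicate 2 of the combined exposure (-0.74, adjusted p = 0.010). Butyrate alone gave -0.65 (SE 0.20, adjusted p = 0.017) and butyrate in the presence of IL-1β -0.55 (SE 0.21, adjusted p = 0.050), and neither passed the threshold. The values without overlap between the butyrate conditions and control rest on 17 to 43 counts per library.

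Cxcr4, the signalling receptor of CXCL12, rose with IL-1β from 1.01 ± 0.33 to 2.31 ± 0.46 CPM (log2 fold change 1.19, SE 0.23, edgeR adjusted p = 0.00023) and fell again when butyrate was added (-1.20, SE 0.23, adjusted p = 0.00021). Dpp4, a protease that cleaves CXCL12, was lower with both exposures than in control islets (-0.74, SE 0.15, adjusted p = 0.0015). The scavenger receptor Ackr3 had 0.441 to 0.595 CPM on average in the 4 conditions and was not called in any comparison. Fancl, Dnajc6 and Myc were most like Cxcl12 over the 16 libraries (r = 0.898, 0.897 and 0.896). With the condition means subtracted, these r values were 0.68, 0.57 and 0.57.

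Hk1 (ENSMUSG00000037012, GRCm38 chr10:62268855-62379908, minus strand) encodes hexokinase 1, which phosphorylates glucose with high affinity. Its CPM in control replicates 1 to 4 was 6.07, 5.71, 6.55 and 4.88, and with IL-1β 3.57, 3.99, 3.52 and 3.79. In islets exposed to both it was 5.32, 3.48, 6.09 and 5.06, and with butyrate alone 6.58, 4.80, 4.60 and 5.76. All libraries with IL-1β alone lay below all control libraries, and those of the other conditions overlapped with control. Between IL-1β and control, 24.7% of all tested genes had no overlap. Hk1 fell by 0.64 on the log2 scale with IL-1β (SE 0.14, edgeR adjusted p = 0.0014), to a 1.55-fold lower level, and this call held in the 26 alternatives tried. Adding butyrate to IL-1β gave a log2 fold change of 0.42 (SE 0.15, adjusted p = 0.032), which did not pass the threshold with all libraries and did without replicate 2 of the combined exposure (0.54, adjusted p = 0.0033). That library, at 3.48 CPM, was the lowest of its group. The difference from the butyrate effect without IL-1β was 0.51 (SE 0.20, adjusted p = 0.50). An antisense gene, Hk1os, overlaps 157 bases (1.84%) of the exons of Hk1, and reads of both strands there could not be told apart if the counting did not use strand.

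Hk2, another high-affinity hexokinase, had 2.41 to 2.60 CPM on average and was not called in any comparison. Hkdc1, a further hexokinase family member, had 0.165 ± 0.083 CPM in control islets and rose with IL-1β (0.470 ± 0.11 CPM, edgeR adjusted p = 0.0059) and with both exposures (0.732 ± 0.15 CPM, adjusted p = 4.2e-05). Slc2a2, the glucose transporter of mouse beta cells, fell by 0.73 on the log2 scale with IL-1β (SE 0.085, adjusted p = 2.6e-06). The genes most like Hk1 were Gatc (r = 0.856), Baiap3 (0.835) and Tmem104 (0.824), or 0.68, 0.62 and 0.66 with the condition means subtracted.

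Ldha (ENSMUSG00000063229, GRCm38 chr7:46841475-46855627, plus strand) encodes lactate dehydrogenase A, which turns pyruvate into lactate. Its CPM in control replicates 1 to 4 was 1.49, 2.00, 2.25 and 2.23, and with IL-1β 2.48, 10.3, 4.04 and 4.47. The combined exposure gave 3.33, 4.54, 5.47 and 4.82, and with butyrate alone 5.83, 3.55, 2.19 and 2.15. All 8 libraries with IL-1β lay above all control libraries, while 2 of the libraries with butyrate alone were at the control level. Of all tested genes, 24.7% had no overlap between IL-1β and control and 38.5% between both exposures and control. IL-1β replicate 2 stood far above the other libraries of its group, and butyrate replicate 1 was the highest of its own. The log2 fold change with IL-1β was 1.42 (SE 0.44, edgeR adjusted p = 0.031), or 0.90 without IL-1β replicate 2 (adjusted p = 0.074). With all libraries this rise passed the threshold in DESeq2 (adjusted p = 0.0047). With both exposures the log2 fold change was 1.18 compared to control (SE 0.45, edgeR adjusted p = 0.052). This passed the threshold without IL-1β replicate 2 (adjusted p = 0.0069) and in a fit of only the conditions compared (adjusted p = 7.2e-06). Butyrate alone gave 0.77 (SE 0.47, adjusted p = 0.25), and butyrate in the presence of IL-1β -0.24 (SE 0.39, adjusted p = 0.70), which became 0.28 without IL-1β replicate 2. Of 4 annotated gene copies at least 95.5% identical to Ldha over stretches of 253 to 1000 bases, 3 were in the count table, with at most 5 counts in any library.

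In each of the 3 exposed groups, the library with the most Ldha also had the most Slc16a3, and in control islets it did not. Slc16a3, the lactate exporter of glycolytic cells, had 4.82 CPM in IL-1β replicate 2 and 0.620 to 1.14 in the other libraries with IL-1β. In butyrate replicate 1 it had 2.56 CPM, with 0.314 to 1.20 in the others of that group, and in replicate 3 of the combined exposure 2.41, with 0.867 to 1.44 in the others. Slc16a3 was not called in any comparison. The genes most like Ldha over the 16 libraries were Hmox1, an enzyme of heme breakdown that stressed cells induce (r = 0.908), Plat, the tissue plasminogen activator (0.896), and Pde6d (0.865), and after subtraction of the condition means the r values were 0.86, 0.86 and 0.85. Hmox1 had 33.3 CPM in IL-1β replicate 2 and 14.2 to 16.9 in the other libraries of that group. In the other exposed groups its highest library was not that of Ldha, since it had 13.96 CPM in butyrate replicate 1 and 14.7 in replicate 2, and with both exposures 16.7 in replicate 3 and 19.4 in replicate 2. Hmox1 and Plat were picked for their likeness to Ldha, so this likeness is a description. Ldhb, the lactate dehydrogenase subunit of oxidative tissues, did not stand apart in these libraries, with 7.11 CPM in IL-1β replicate 2 and 7.31 to 8.08 in the others. Per length of all exons, Ldhb was 9.38-fold above Ldha in control islets, 2.99-fold with IL-1β, 4.22-fold with both and 5.93-fold with butyrate alone. The folds are smaller with the longest transcript as length, where control islets had 6.80 CPM per kilobase of Ldhb and 1.10 of Ldha. Of 22 genes of glucose entry and pyruvate and lactate use, 5 rose and 3 fell with IL-1β, beside 11.2% and 6.59% of all genes, and 3 rose and 4 fell with butyrate alone, beside 8.53% and 11.4%. Their median log2 fold changes were 0.02 and 0.04, beside -0.03 and 0.01 over all genes. Pdk4, the kinase that inhibits pyruvate dehydrogenase, rose by 0.61 with butyrate alone (SE 0.065, edgeR adjusted p = 4.5e-08) and by 0.82 in the presence of IL-1β (SE 0.065, adjusted p = 3.0e-10). Me1, the cytosolic malic enzyme, rose by 0.72 with IL-1β (SE 0.067, adjusted p = 2.5e-09) and changed by -0.52 when butyrate was added (SE 0.066, adjusted p = 7.9e-07).

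**Figure D3:**
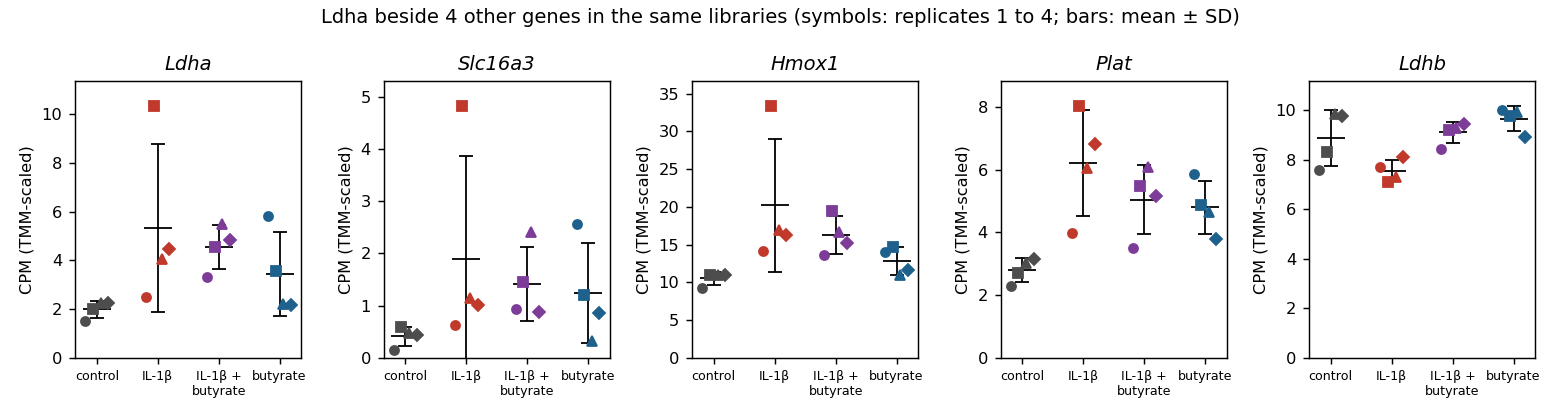
CPM (y axis) of Ldha and of 4 other genes in each library of the 4 conditions; symbols are replicates 1 to 4 and bars the mean ± SD of 4 libraries. The square of IL-1β is highest for Ldha (10.3), Slc16a3 (4.82), Hmox1 (33.3) and Plat (8.03) and is the lowest of its group for Ldhb (7.11).

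Slc16a1 (ENSMUSG00000032902, GRCm38 chr3:104638668-104658462, plus strand) encodes the monocarboxylate transporter 1. Its CPM was 0.747, 1.13, 0.621 and 1.24 in control replicates 1 to 4, and 0.362, 0.682, 0.777 and 0.794 with IL-1β. With both it was 0.853, 0.721, 1.01 and 1.01, and with butyrate alone 0.954, 0.711, 1.31 and 1.03. The 4 conditions overlapped. The log2 fold change with IL-1β was -0.50 (95% confidence interval -1.09 to 0.08, edgeR adjusted p = 0.21), an interval that holds both no change and a fall by 1, at 7 to 29 counts per library. Bsg, the chaperone that brings this transporter to the membrane, was 1102-fold above it per length in control islets and rose by 0.41 with IL-1β (SE 0.062, adjusted p = 1.4e-05). The genes most like Slc16a1 were Tbx3 (r = 0.906), Gm10125 (0.877) and Fstl1 (0.864), the last of them a secreted protein of fibroblasts. With the condition means subtracted, these r values were 0.92, 0.83 and 0.80. Slc16a1 was also set beside summed cell type markers over 16 libraries, after subtraction of the condition means. Its r was 0.66 with 7 fibroblast and stellate markers, 0.62 with 7 endothelial and 0.63 with 4 Schwann cell markers. It was -0.61 with alpha cell markers, 0.43 with macrophage and leukocyte markers, and -0.18 to 0.24 with beta cell, delta cell, acinar and duct markers. Acot7 had 0.58 with the fibroblast and stellate, 0.28 with the endothelial and 0.60 with the Schwann cell markers. Values of similar size also occurred in other pairs, as -0.61 for Rest with beta cell markers and 0.56 for Ldha with delta cell markers. Which cells the Slc16a1 reads came from was not tested.

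Rest (ENSMUSG00000029249, GRCm38 chr5:77265491-77286432, plus strand) encodes the repressor that silences neuronal genes outside neurons and endocrine cells. It had the lowest level per length of the 8 genes in control islets. Its CPM was 1.73, 1.13, 1.34 and 1.28 in control replicates 1 to 4, and 1.24, 1.17, 1.14 and 1.88 with IL-1β. With both it was 1.42, 1.95, 1.36 and 2.26, and with butyrate alone 1.66, 1.78, 1.36 and 1.85. The conditions overlapped, and the log2 fold changes with butyrate were 0.29 (95% confidence interval -0.15 to 0.74, edgeR adjusted p = 0.35) alone and 0.33 (-0.11 to 0.77, adjusted p = 0.26) in the presence of IL-1β. With IL-1β alone it was 0.02 (-0.43 to 0.48, adjusted p = 0.96). Catsperd and Accs were most like Rest (r = 0.827 and 0.820, or 0.77 and 0.76 with the condition means subtracted).

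Among 14 co-factors of REST, Rcor2, a co-repressor that couples it to a histone demethylase, changed most. It had 8.09 ± 0.97 CPM in control islets, 7.37 ± 0.19 with IL-1β, 15.1 ± 0.72 with both and 17.1 ± 1.1 with butyrate. It rose by 1.08 with butyrate alone (SE 0.079, edgeR adjusted p = 7.1e-11) and by 1.04 in the presence of IL-1β (SE 0.081, adjusted p = 2.5e-10). Sin3b, a scaffold of deacetylase complexes, was lower with butyrate (-0.26, SE 0.046, adjusted p = 9.1e-05), as was Sin3a (-0.20, SE 0.050, adjusted p = 0.0032). The phosphatase Ctdspl fell by 0.32 with IL-1β (SE 0.063, adjusted p = 0.00042).

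Of 22 genes known as REST targets, 21 were tested, and 8 rose and 0 fell with butyrate alone by the edgeR test, with a median log2 fold change of 0.18 over the list, beside 8.53% of genes raised, 11.4% lowered and a median of 0.01 over all tested genes. When butyrate was added to IL-1β, 5 of the 21 rose and 3 fell (median 0.11, beside 8.41% and 11.1% of all genes and a median of 0.01). Between both exposures and control 8 rose and 4 fell (median 0.07, beside 15.8% and 14.8% of all genes and a median of 0.00). Stmn3, a tubulin-binding protein, rose most of those called with butyrate alone (1.07, SE 0.11, adjusted p = 9.3e-07), and its rise in the presence of IL-1β was 1.14 (SE 0.11, adjusted p = 2.9e-07). The other 7 genes raised by butyrate alone were Chga, Syp, Stx1a, Scg2, Mapk8ip1, Gjd2 and Dner, named because they make up this count. With IL-1β alone, 4 of the 21 rose and 2 fell (median -0.04, beside 11.2% and 6.59% of all genes and a median of -0.03). Chgb, a protein of secretory granules, rose from 1935 ± 52 to 8244 ± 1388 CPM, a log2 fold change of 2.09 (SE 0.14, adjusted p = 2.7e-08), and Bdnf, a growth factor for neurons, rose by 2.61 (SE 0.21, adjusted p = 1.8e-08). Gria2, a glutamate receptor subunit, fell by 0.85 with IL-1β (SE 0.14, adjusted p = 0.00034). Promoter windows were found for 16 genes of this list. The core of the REST site (RE1) was in 1 of them, that of Gria2, beside 0.0517% of all windows. Whether REST had a part in the changes of these genes was not tested.

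Oat (ENSMUSG00000030934, GRCm38 chr7:132557478-132576398, minus strand) encodes the mitochondrial ornithine aminotransferase. Its CPM in control replicates 1 to 4 was 13.6, 14.9, 16.5 and 14.6, and with IL-1β 14.1, 14.7, 14.1 and 13.5. In islets exposed to both it was 13.2, 16.6, 15.98 and 15.2, and with butyrate alone 10.4, 9.46, 12.5 and 10.8. The libraries with butyrate alone lay below all 12 others, which overlapped among themselves. Between butyrate and control, 30.1% of all tested genes had no overlap, and the share for all 12 others was not computed. Butyrate alone changed Oat by -0.47 on the log2 scale (SE 0.085, edgeR adjusted p = 0.00010), a 1.38-fold lower level. This held in the 26 alternatives tried, of which the looser threshold of 0.05 could not undo a call. In the presence of IL-1β the butyrate effect was 0.12 (SE 0.082, 95% confidence interval -0.05 to 0.28, adjusted p = 0.30). The difference between both effects was 0.59 (SE 0.12, adjusted p = 0.023), which did not pass the threshold. It passed in 6 of the 25 alternatives, among them DESeq2 (0.58, adjusted p = 0.0073), the fit without a filter on low counts (0.60, adjusted p = 0.00015) and the fit with the replicate number as a block (0.58, adjusted p = 0.00063), and its adjusted p ranged up to 0.087. Mzt2 (r = 0.863), Azin1 (0.859) and Tmem255a (0.852) were most like Oat, and Azin1 is a regulator of ornithine decarboxylase. With the condition means subtracted, these r values were 0.65, 0.73 and 0.45.

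Odc1, the ornithine decarboxylase, uses the same substrate as Oat and makes polyamines from it. It rose from 78.7 ± 3.6 to 285 ± 24 CPM with IL-1β (log2 fold change 1.85, SE 0.067, edgeR adjusted p = 1.6e-16) and to 395 ± 27 with both. Its butyrate effect was 0.47 in the presence of IL-1β (SE 0.064, adjusted p = 3.8e-06) and -0.05 without it (SE 0.068, adjusted p = 0.65), and the difference of 0.52 was called (SE 0.093, adjusted p = 0.0098). Odc1 was the 1 of 12 tested genes of ornithine and proline metabolism called there, beside 0.0968% of all genes. Ass1, which makes argininosuccinate for arginine synthesis, rose by 1.34 with IL-1β (SE 0.15, adjusted p = 1.9e-07) and changed by -0.93 when butyrate was added (SE 0.15, adjusted p = 3.0e-05). Glul, the glutamine synthetase, rose by 0.42 with IL-1β (SE 0.041, adjusted p = 5.2e-09), and the proline-degrading enzyme gene Aldh4a1 was lower with butyrate alone (-0.34, SE 0.075, adjusted p = 0.0011).

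Acot7 (ENSMUSG00000028937, GRCm38 chr4:152178134-152271855, plus strand) encodes an acyl-CoA thioesterase that splits long chain acyl-CoA into free fatty acid and coenzyme A. Its CPM was 0.607, 0.751, 0.621 and 1.20 in control replicates 1 to 4, and 0.931, 1.02, 1.45 and 0.974 with IL-1β. With both it was 1.22, 1.10, 2.01 and 1.16, and with butyrate alone 0.402, 0.622, 0.627 and 0.602. Control replicate 4 lay among the libraries with both exposures. Compared to control the combined exposure gave a log2 fold change of 0.78 (SE 0.26, edgeR adjusted p = 0.019), which passed the threshold without control replicate 4 (1.04, adjusted p = 0.0040) and with the replicate number as a block (0.77, adjusted p = 0.0090), and was 0.53 without replicate 3 of the combined exposure (adjusted p = 0.14). The butyrate effect was -0.50 alone (adjusted p = 0.24) and 0.34 in the presence of IL-1β (adjusted p = 0.34), and their difference of 0.83 had a 95% confidence interval of 0.02 to 1.64 (adjusted p = 0.66). Its counts were 8 to 46 per library. Crb1, Btbd11 and Irf8 were most like Acot7 (r = 0.890, 0.882 and 0.828), the last of them a transcription factor of myeloid cells. After subtraction of the condition means the r values were 0.66, 0.76 and 0.52. The r of Acot7 with the summed macrophage and leukocyte markers was then -0.0063.

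Of 13 other acyl-CoA thioesterase genes 11 were tested, and with IL-1β 1 of them rose and 0 fell, beside 11.2% and 6.59% of all genes. The raised gene was Acot9, a mitochondrial member, with 3.09 ± 0.34 CPM in control islets and 7.45 ± 0.54 with IL-1β (log2 fold change 1.26, SE 0.12, edgeR adjusted p = 3.0e-09). Butyrate alone raised 0 and lowered 3 of the 11, beside 8.53% and 11.4% of all genes. The 3 were Acot4 (-0.69, SE 0.13, adjusted p = 0.00021), Them6 (-0.47, SE 0.085, adjusted p = 0.00011) and Acot11 (-0.20, SE 0.059, adjusted p = 0.0094).

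**Figure D4:**
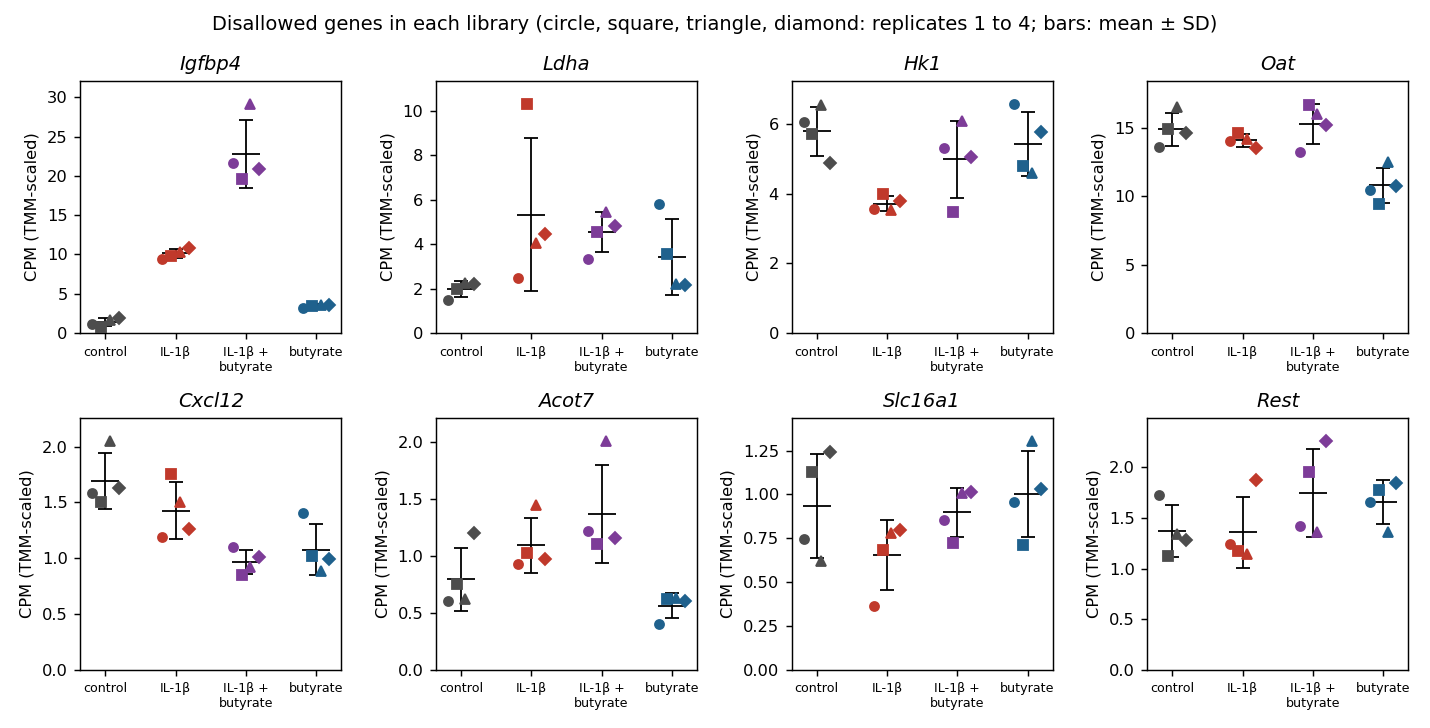
CPM (y axis, TMM-scaled) of each of the 8 disallowed genes in the 16 libraries, by condition (x axis); circle, square, triangle and diamond are replicates 1 to 4 and bars the mean ± SD of 4 libraries. Igfbp4 separates the 4 conditions, Hk1 is lowest with IL-1β, Oat is lowest with butyrate alone, and Ldha has 1 library at 10.3 CPM with IL-1β.

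A further 16 genes are also counted among the disallowed genes, and all 16 were tested. With IL-1β 2 of the 16 rose and 1 fell, beside 11.2% and 6.59% of all genes, and with butyrate alone 2 rose and 1 fell, beside 8.53% and 11.4%. With both exposures 5 rose and 1 fell compared to control, beside 15.8% and 14.8% of all genes. The median log2 fold changes of the 16 were 0.17, 0.14 and 0.22, beside -0.03, 0.01 and 0.00 over all genes. Arhgdib, a regulator of the cytoskeleton that leukocytes express strongly, rose with IL-1β from 0.344 ± 0.083 to 1.39 ± 0.43 CPM (log2 fold change 2.01, SE 0.33, edgeR adjusted p = 2.5e-05). Pdgfra, a growth factor receptor of fibroblasts, rose with butyrate from 0.204 ± 0.10 to 0.715 ± 0.11 CPM (1.81, SE 0.42, adjusted p = 0.0016). Its control level rests on 2 to 7 counts per library. Pdgfra is also 1 of the 7 fibroblast and stellate markers given below, and the other 6 were not called with butyrate alone. Yap1, a co-activator of the Hippo pathway, rose with butyrate alone (0.88, SE 0.19, adjusted p = 0.00061) and in the presence of IL-1β (0.95, SE 0.20, adjusted p = 0.00063). Fcgrt, a receptor for immunoglobulin G, rose with both exposures compared to control (0.80, SE 0.23, adjusted p = 0.0060). Hk2 was among the 13 of 16 not called with IL-1β.

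Markers of the cell types in an islet were summed for each library, and no marker of 9 cell types was at 0 in all 4 libraries of any condition. The 8 beta cell markers, led by the insulin genes, summed to 213096 to 235878 CPM in control islets, 136621 to 178139 with IL-1β, 136980 to 169054 with both and 221199 to 260664 with butyrate alone. With IL-1β, 7 of these 8 markers fell and 1 rose. In libraries of whole islets, fewer cells of a type and less RNA per cell cannot be told apart. Of 9 macrophage and leukocyte markers 8 rose with IL-1β and C1qa fell. The 9 markers summed to 130 to 143 CPM in control islets, 186 to 234 with IL-1β, 101 to 139 with both and 86.4 to 107 with butyrate alone. C1qa had the highest level of them in control islets, and it was set aside after its values were seen. The other 8 summed to 18.6 to 30.5 CPM in control islets, 95.4 to 166 with IL-1β, 42.8 to 93.7 with both and 14.9 to 24.8 with butyrate alone. Both sums were highest with IL-1β alone, as were the means of Arhgdib, Cxcr4 and Igf1, while the mean of the 9 was lower with both exposures (121 CPM) than in control islets (137) and that of the 8 was higher. Whether the reads of these 3 genes came from such cells was not tested. Igfbp4 had another order, highest with both exposures and higher with butyrate than in control islets. The 7 endothelial markers summed to 13.7 to 15.5 CPM in control islets, 11.8 to 18.0 with IL-1β, 20.5 to 25.0 with both and 18.8 to 20.3 with butyrate alone, and butyrate alone raised 1 of the 7. The 7 acinar markers summed to 6.79 to 10.5, 12.8 to 20.4, 12.4 to 17.8 and 7.68 to 11.1 CPM in the same order of conditions. The 7 fibroblast and stellate markers summed to 7.36 to 13.3, 4.44 to 12.7, 6.00 to 20.5 and 11.5 to 14.1 CPM. The 3 delta cell markers summed to 1686 to 1985 CPM in control islets, 1737 to 2213 with IL-1β, 2616 to 3177 with both and 2384 to 2764 with butyrate alone. The 5 alpha cell markers summed to 19864 to 22987, 19631 to 25040, 24423 to 27380 and 17976 to 21560 CPM in the same order of conditions. In this order the duct sum was 357 to 386, 407 to 473, 360 to 393 and 334 to 354 CPM. IL-1β alone raised 2 of the 5 duct markers tested. The Schwann cell sum was 11.9 to 14.2, 8.70 to 11.2, 11.3 to 13.8 and 12.7 to 15.4 CPM. Beside Igfbp4, the endothelial and delta cell sums were higher than in control islets in both butyrate conditions. The acinar sum was higher in both IL-1β conditions, the alpha cell sum with both exposures and the duct sum with IL-1β alone. Such sums follow their most abundant markers, and Sst had 1650 of the 1776 CPM of the delta cell sum in control islets on average. Compared to control, 1 of the 3 delta cell markers was raised in each butyrate condition. Only 4 of the acinar markers could be tested, and 1 of them was raised in each IL-1β condition. The part of these cell types in the rise of Igfbp4 was not tested.

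**Figure D5:**
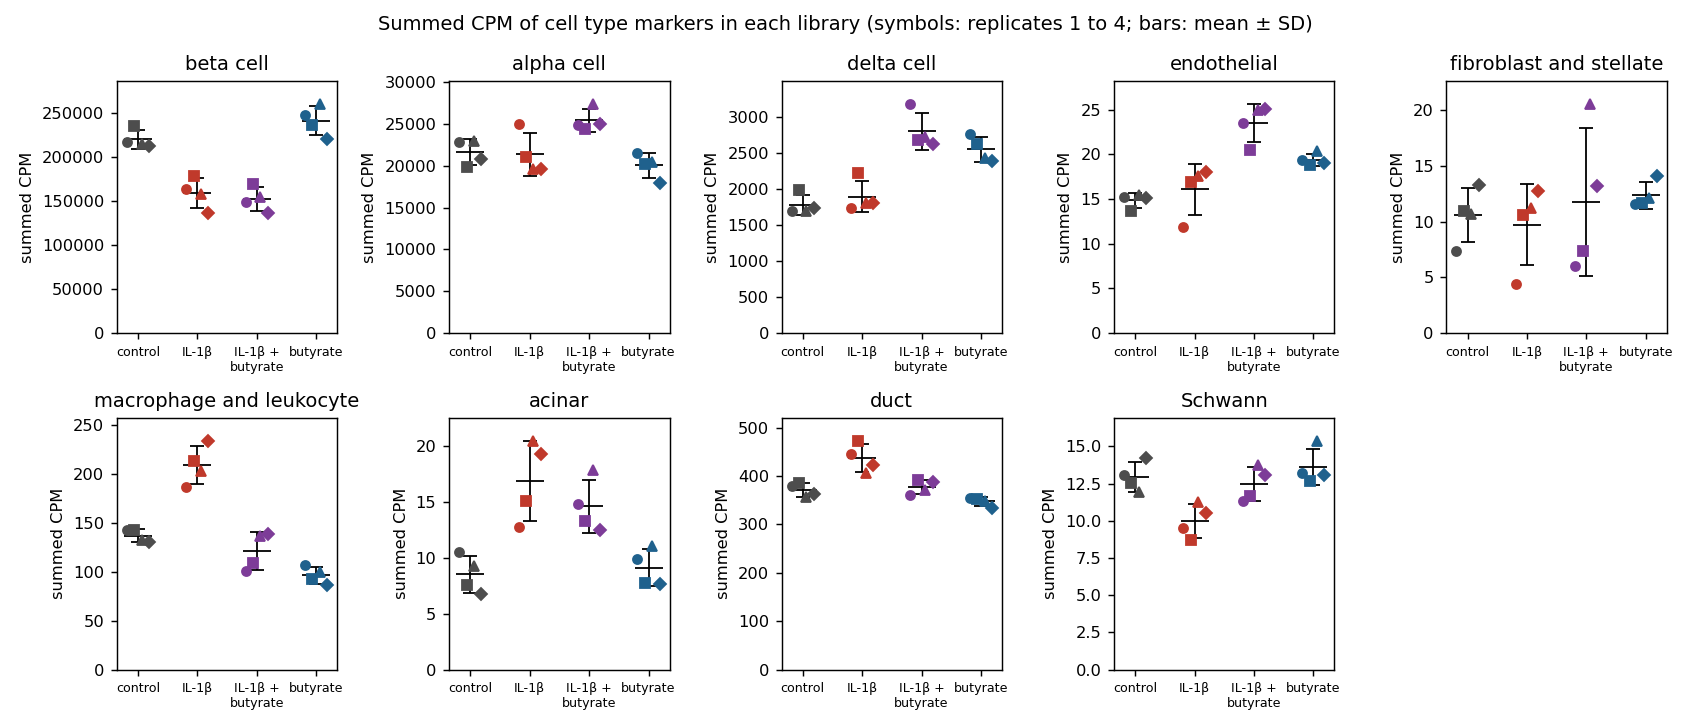
Summed CPM (y axis) of the markers of 9 cell types in each library by condition (x axis); symbols are replicates 1 to 4 and bars the mean ± SD of 4 libraries. The beta cell sum is at most 178139 in all 8 libraries with IL-1β, and the endothelial sum is 18.8 to 25.0 in the 8 libraries with butyrate.

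Library depth was similar in the 4 conditions. Total counts per library were 18635943 to 25955943, with a median of 22184715. In every library all 8 genes had at least 7 counts.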

How the data were processed

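RNA from mouse islets was sequenced in 16 libraries of 4 conditions, with single-end reads from the NEBNext Ultra II kit. The authors mapped the reads with STAR 2.5.3a to GRCm38 (GRCm38.p5 in the submitters' processing notes) and deposited raw counts per gene, whole numbers without normalization. The annotation release, strand setting and read filters are not given in the sources used here. Total counts were 18635943 to 25955943 per library. Reads carried no molecular identifiers, and 0 columns belonged to other samples. Each library is one of 4 biological replicates from pooled islets, so the tests measure the spread between pools and not between mice.

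Symbols, positions and exon lengths came from GENCODE M21, which held 52489 of the 52636 identifiers. In R 4.3.3, edgeR 4.0.16 filtered genes (filterByExpr with the 4 conditions, 18587 left), scaled by TMM and fitted 1 robust quasi-likelihood model to all libraries, with Benjamini-Hochberg adjustment over all tested genes and a threshold of 0.01. Standard errors were computed from the fold change and the F statistic. CPM used the TMM library sizes, and likeness between genes used log2 CPM with a prior count of 2. The pipeline was tested on simulated data.

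The members and lists of genes were chosen with earlier results of these data known, so no list was given a test of its own. Named besides the 8 members were up to 4 called genes with the largest change of each list, the direct partners Hk2, Slc2a2, Ldhb, Slc16a3, Bsg, Cxcr4 and Ackr3, and the 3 genes with a mean log2 CPM of at least 1 most like each member. Results for 2 genes under this rule are not reported here. Further genes (Igfbp5, Igfbp7, the 7 further REST targets, the untested binding proteins, C1qa) were chosen after their values were seen. Promoter windows were those of RefSeq on GRCm38.p6, which held 7 of the 8 members, and motifs were searched on both strands. Alternatives were other scalings and filters, DESeq2 1.42.0, limma-voom (limma 3.58.1), a replicate block, a threshold of 0.05, a fit of only the conditions compared, and leaving out each library. The threshold of 0.05 could only add calls. The libraries left out included those of conditions outside a comparison, which share its estimate of the spread. For control levels per length, the longest transcript was the alternative to all exons.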

Additional observations from a re-analysis of the deposited data

Results flagged for a closer look

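In each condition the highest and the lowest of the 4 libraries were checked for a wide gap to the others, for each of the 8 genes. Of the 32 groups 3 had such a library, and chance alone gives about 1 in 20 groups. Rest had 1.88 CPM in IL-1β replicate 4, where the other libraries had 1.14 to 1.24. Acot7 had 2.01 CPM in replicate 3 of islets exposed to both, where the others had 1.10 to 1.22. Acot7 also had 0.402 CPM in butyrate replicate 1, where the others had 0.602 to 0.627.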

How the results depend on the processing

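Fold changes of the 8 genes in 5 comparisons were examined under 1032 combinations of gene, comparison and alternative setting. Of these, 988 kept their direction and side of the threshold, 18 newly passed the threshold used, 2 no longer passed it and 24 changed sign. None of the last were among called changes. The 18 include unchanged values of the main fit that passed only the looser threshold of 0.05, such as Cxcl12 with butyrate alone. The count of genes called for the difference of the butyrate effects was 1 (Oat) in place of 0 at a threshold of 0.05, with DESeq2, without a filter on low counts and with the replicate block, and 0 to 1 without single libraries. For IL-1β compared to control, Ldha was added with DESeq2 (adjusted p = 0.0047) and at a threshold of 0.05. For both exposures compared to control, leaving out single libraries lost Cxcl12 or added Ldha or Acot7. For both exposures compared to IL-1β the count was 1 to 2 without single libraries, or 3 at a threshold of 0.05 (Cxcl12, Hk1, Igfbp4).

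Of the uncalled changes that turned sign, Ldha when butyrate joined IL-1β was -0.24 in the main fit, and Igfbp4 for the difference was -0.20. The others lay from -0.074 (Slc16a1 with both exposures) to 0.099 (Cxcl12 for the difference). Without single libraries, Rest ranged from -0.19 to 0.15 with IL-1β and from -0.12 to 0.25 for the difference, and Slc16a1 from -0.071 to 0.24 with butyrate alone and from -0.22 to 0.091 with both exposures. Oat ranged from -0.013 to 0.096 with both exposures, Cxcl12 from -0.0033 to 0.25 and Igfbp4 from -0.43 to 0.019 for the difference, and Ldha from -0.48 to 0.28 when butyrate joined IL-1β. Rest had -0.0092 with IL-1β under upper-quartile scaling and -0.0038 for the difference with limma-voom, and Slc16a1 had 0.0017 with both exposures under library size as the only scaling. The cause was not tested.

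The study describes independent experiments and used paired t-tests for insulin secretion and qPCR in islets. The sample numbers in the library labels run in sets of the 4 conditions, replicate by replicate. No source used here says that libraries of the same replicate number share an experiment, so the main fit did not pair them. Of 24 pairs of same-numbered libraries 17 had deviations from the condition means that correlated above 0.1 (lowest 0.0535, highest 0.397). In 21 of 24 the own number was the best match. Together with the order of the labels, this is a hint that the numbers may mark a shared experiment. With the replicate block, genes called rose from 3311 to 4537 with IL-1β, from 3629 to 4983 for both exposures compared to IL-1β, from 3697 to 4879 for butyrate alone, from 5688 to 6899 for both exposures compared to control and from 18 to 132 for the difference. Among the 8 genes the block added Oat for the difference (0.58, adjusted p = 0.00063) and Acot7 for both exposures compared to control (0.77, adjusted p = 0.0090). Genes with few counts (Slc16a1, Rest, Acot7 and Cxcl12) had wide intervals, so small changes of these genes were not detectable at this depth and number of libraries.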
